A study of Mus musculus with 23 samples.

Results

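DOM and DINCH were compared directly with each other, without the vehicle arrays in the test, to describe which functions separate these plasticizers in TM4 cells. DOM is dioctyl maleate, a linear diester with a carbon-carbon double bond in its acid part. DINCH is diisononyl cyclohexane-1,2-dicarboxylate, a diester whose acid part is a saturated ring. TM4 is a line of immortalized mouse Sertoli cells, and the arrays show this 1 line in culture and not the testis. Cells received 100 μM of a plasticizer for 48 hr in 1% DMSO before total RNA was extracted, and all groups used here shared this vehicle, cell line and time. The arrays carrying the titles of DOM (4 arrays) and DINCH (4 arrays) were taken, which is 8 of the 23 arrays of the series. Each group is described as 4 biological replicates, and each replicate was hybridized to its own 1-colour Agilent array. The 4 arrays of DMSO alone are given beside the results as a description. The 4 arrays of BDB, 1,4-butanediol dibenzoate, another plasticizer given at 100 μM for 48 hr, are set against DMSO for the slide rows only. Only this 1 pair of compounds was compared, at the same dose and time.

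Sertoli cells are the supporting cells of the seminiferous epithelium. They feed the germ cells with lactate and lipids, seal the blood-testis barrier with junctions, secrete inhibin, activins and matrix, and divide only until puberty, whereas the TM4 line divides in culture. Of the 20 Sertoli cell markers listed, 8 were bright enough to be tested. The transcription factor Wt1, the hormone receptor Fshr, the junction protein Cldn11, the growth factor Gdnf and the transcription factor Sox8 were not well above background on any of the 8 arrays. These listed markers thus gave no usable signal here. Of the markers listed for germ (8), Leydig (7), peritubular myoid (5), macrophage (5) and endothelial cells (4), those tested numbered 1, 1, 3, 1 and 2. The myoid gene Cnn1 and the Leydig enzyme Cyp17a1 passed the test, with DOM minus DINCH differences of -1.55 and -0.65 log2 units, and the myoid genes Acta2 (0.04) and Actg2 (-0.06) did not.

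A level is the log2 intensity of a probe relative to the 75th percentile of its array, and a difference is the DOM mean minus the DINCH mean in log2 units, with its standard error over 4 and 4 arrays. A gene was tested when its probe was well above background on every array of DOM or of DINCH, and it was called when limma's adjusted p was below 0.05 and the change was more than 1.5-fold. Where a gene had several probes, any called probe counted and the values given are those of the brightest. Of 11888 genes tested, 2774 were called (23.3%). DOM was higher for 1392 of them (11.7%) and DINCH for 1371 (11.5%), and 11 genes had probes called in both directions. The change was above 2-fold for 1120 genes, 541 of them higher with DOM and 579 higher with DINCH. The median difference over all tested genes was -0.03. Normexp background correction, one of the alternative settings, shrank the differences of dim probes, and the values it gave are stated where they were more than 1.5 times smaller. The scanner software's extraction measures were all in range on 2 DOM arrays (replicates 1 and 2) and 2 DINCH arrays (replicates 3 and 4). With these alone 786 genes were called. These DOM arrays lay on 1 slide and these DINCH arrays on another, so slide and compound cannot be told apart in this subset. A test of 2 against 2 arrays also has less power to call a gene. The first principal component of the 8 arrays held 60.9% of their variance and placed all DOM arrays on one side and all DINCH arrays on the other.

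The arrays lay on 3 slides, and each slide held DOM and DINCH arrays. Of the 2442 genes called on their brightest probe, 2437 (99.8%) had the same direction within each of the 3 slides. DOM arrays always lay in rows of a slide that DINCH arrays never used, so the row and the compound cannot be told apart. BDB and DMSO arrays occupied those same rows, BDB those of DINCH and DMSO those of DOM. These groups differ in treatment as well as in row. BDB against DMSO called 0 of 11969 genes (0%) with limma, with 3494 of 24291 probes at an unadjusted p below 0.05 (14.4%, against 44.2% for DOM and DINCH). That count of 0 became 42 to 120 genes under 4 of the alternative settings. DINCH replicate 1 had the lowest 75th percentile of intensity, 204.6, where the other 7 arrays had 242.0 to 350.7. For the 2442 genes, the DMSO mean lay nearer to DINCH for 1834 (75.1%, against 62.4% of all tested genes) and between both compounds for 1725.

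The function that separated the compounds most completely was cell division. Progress through mitosis needs cyclins and kinases that start it, motors and kinetochore proteins that move the chromosomes and ligases that end it, and these genes are transcribed together late in the cell cycle. All 31 tested genes of the mitotic list were called higher with DINCH, against 11.5% of all tested genes, and their median difference was -1.97. The median of the list relative to DMSO was -1.57, -2.04, -1.59 and -2.48 on the 4 DOM arrays and 0.12, 0.09, 0.01 and 0.09 on the 4 DINCH arrays. DINCH arrays thus lay at the DMSO level and every DOM array lay below it. In whole cultures, fewer dividing cells and less RNA per dividing cell cannot be told apart. Within the slides the median difference was -1.87, -1.61 and -2.55.

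Cenpa, the histone variant that marks centromeres, had levels of 2.56, 2.34, 2.75 and 1.74 with DOM and 5.09, 4.78, 4.75 and 4.77 with DINCH. The groups did not overlap, and the difference was -2.50 ± 0.20 (SE, limma adjusted p = 5.23e-05), or 5.67-fold. Plk1, a kinase needed at several steps of mitosis, stood at 3.54, 2.97, 3.58 and 2.46 with DOM and at 5.55, 5.39, 5.34 and 5.25 with DINCH (difference -2.25 ± 0.23, adjusted p = 0.000149). Mki67, the proliferation antigen, stood at 2.99, 2.70, 3.17 and 1.84 with DOM and at 4.62, 4.74, 4.60 and 4.13 with DINCH. Its difference was -1.85 ± 0.27 (adjusted p = 0.000786), and DOM replicate 4 was the lowest array for all 3 genes. The difference was smallest for Incenp, a scaffold of the chromosomal passenger complex (-1.36 ± 0.16), and Foxm1, a transcription factor of late cell cycle genes, followed at -1.53 ± 0.20. Aurkb, the kinase of the same passenger complex, had the largest mitotic difference (-2.53 ± 0.68, adjusted p = 0.0192), but it was dim on the DOM arrays and spread from -5.60 to -1.95 there, overlapping the DINCH arrays (-2.30 to -0.39). Without DINCH replicate 2 its adjusted p was 0.0527, and with normexp its difference was -1.02.

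**Figure D1:**
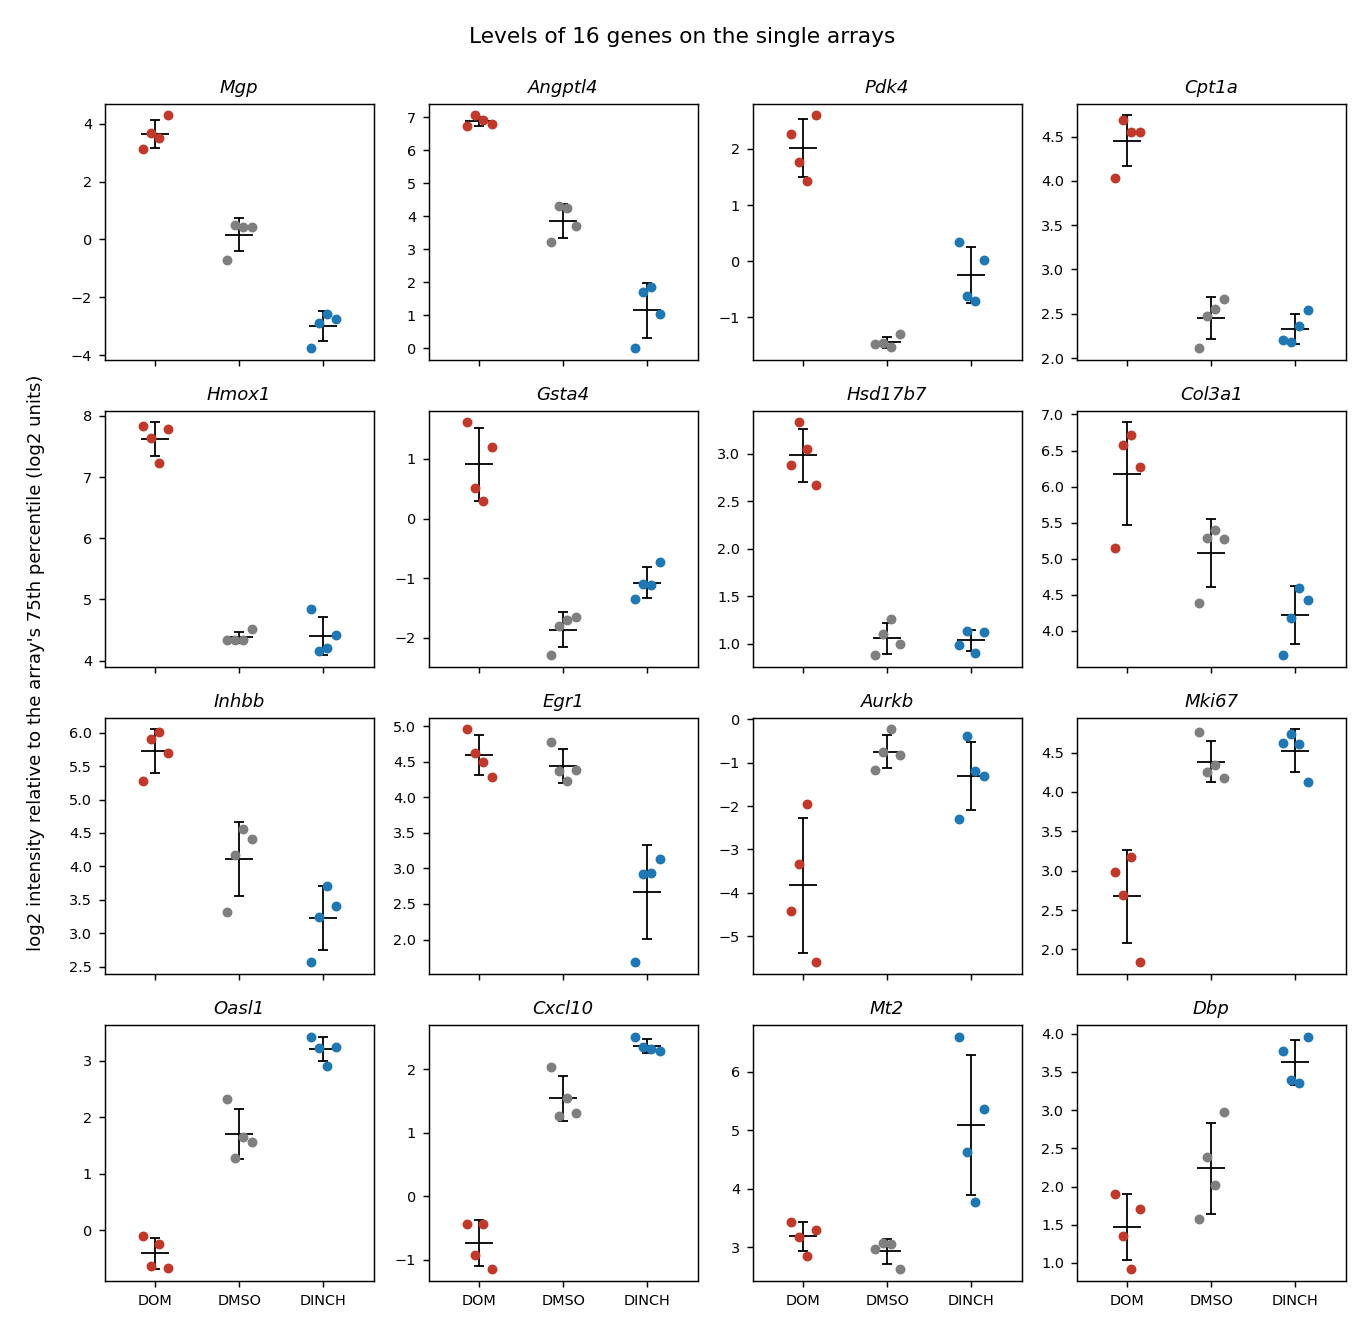
Levels of 16 genes on each array, in log2 units relative to the array's 75th percentile. Points are single arrays, 4 for each of DOM (red), DMSO (grey) and DINCH (blue), and the black marks show the mean with 1 SD. DOM and DINCH arrays overlap for Aurkb only, and the DMSO mean lies between them for Mgp, Angptl4, Oasl1, Cxcl10 and Dbp, with DINCH for Hmox1, Hsd17b7 and Mki67, and with DOM for Egr1 and Mt2.

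Genes of DNA replication followed in the same direction with smaller differences. Of 41 tested, 28 were called higher with DINCH (68.3%), none with DOM, and the median difference was -0.77. Tk1, the thymidine kinase of S phase, differed by -1.69 ± 0.33 (adjusted p = 0.00432). Gins1, a subunit of the replicative helicase, differed by -1.65, and Rrm2, the regulated subunit of ribonucleotide reductase, by -1.46 ± 0.25. Mcm5, a subunit of the same helicase, stood at 2.79, 2.67, 3.0 and 2.21 with DOM and at 3.99, 4.04, 4.01 and 4.01 with DINCH, with no overlap (difference -1.34 ± 0.16, adjusted p = 0.000278). Pcna, the sliding clamp, differed by -0.77 ± 0.15. Fen1, the flap nuclease, did not pass the test (0.02, 95% interval -0.49 to 0.52), and both compounds lay below DMSO for it. Origin recognition subunits were mostly not called, with -0.21 for Orc5, -0.33 for Orc2 and -0.42 for Orc3.

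The genes that decide entry into the cycle were mixed. Of 18 tested CDK inhibitors, G1 cyclins and E2F factors, 6 were called higher with DINCH (33.3%) and 3 with DOM (16.7%). The shares over all tested genes were 11.5% and 11.7%. Ccnd1, cyclin D1, differed by -1.01 ± 0.23 (adjusted p = 0.00865) and E2f2 by -0.99. Cdkn2d, an inhibitor of CDK4 and CDK6, was also higher with DINCH (-1.20), whereas Cdkn2b, another inhibitor of these kinases, was higher with DOM (0.87 ± 0.11, adjusted p = 0.000364). Cdkn1a, the inhibitor p21, had a difference of 0.33 and was not called. Of 21 tested p53 target genes 2 were called in each direction (9.52% each), under the shares of all tested genes.

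The promoters of the mitotic genes were examined because all members moved together. The search used the 250 bases before each start in RefSeq's promoters (GRCm38.p6), both strands, and 24 of the 31 genes had an entry. The motifs were chosen after the results were known. The cell cycle genes homology region, TTTGAA, was found in 9 of the 24 (37.5%), against 12.7% of the 9514 tested genes with a promoter. A CCAAT box stood in 17 of the 24 (70.8%), against 40.8%. A match describes the letters of this window, not a site or a cause, and both motifs can overlap by 1 base. In the examples below, capitals mark TTTGAA or its reverse complement, and the sequences run 5′ to 3′ on the strand of the gene. They come from chr4:118437344-118437401 (minus strand) for Cdc20, the activator of the mitotic ubiquitin ligase, from chr2:164769860-164769928 (plus strand) for Ube2c, the ubiquitin-conjugating enzyme of that ligase, and from chr19:37376323-37376381 (plus strand) for Kif11, the motor that separates the spindle poles.
Cdc20: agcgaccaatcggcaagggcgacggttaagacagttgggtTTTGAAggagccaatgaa
Ube2c: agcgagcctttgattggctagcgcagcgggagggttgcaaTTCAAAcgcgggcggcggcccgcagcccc
Kif11: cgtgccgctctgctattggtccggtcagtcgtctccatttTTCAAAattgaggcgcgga
The differences of these genes were -2.23 ± 0.18 for Cdc20, -2.20 ± 0.18 for Ube2c and -1.84 ± 0.22 for Kif11, each with DOM and DINCH arrays apart.

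Interferon-induced genes were the next function that separated the compounds in 1 direction. They are switched on by STAT and IRF factors when cells sense interferon or foreign nucleic acid. Of 25 tested, 19 were called higher with DINCH (76%) and none with DOM, with a median difference of -1.36 (-0.80 with normexp). The list median relative to DMSO was -0.33, -0.63, -0.39 and -0.58 on the DOM arrays and 0.82, 0.64, 0.51 and 0.72 on the DINCH arrays, so the compounds lay on opposite sides of the vehicle. BDB minus DMSO sets the slide rows of DINCH against those of DOM, the reverse order of DOM minus DINCH. Its median was -0.42 over these members, where DOM minus DMSO had -0.53 and DINCH minus DMSO 0.69. BDB thus lay below DMSO here, as DOM did. Over the mitotic list the BDB median was 0.08. The effect of BDB itself on these values was not tested.

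Oasl1, a 2′-5′-oligoadenylate synthetase-like protein, stood at -0.09, -0.62, -0.24 and -0.66 with DOM and at 3.43, 3.23, 2.91 and 3.25 with DINCH. This was the largest difference of the list (-3.61 ± 0.16, adjusted p = 3.98e-06), or 12.2-fold. Isg15, a ubiquitin-like modifier, stood at 3.93, 3.75, 3.64 and 3.36 with DOM and at 5.34, 5.15, 4.91 and 4.74 with DINCH (difference -1.36 ± 0.17, adjusted p = 0.000325). Its groups did not overlap either. Further members were Oasl2 (-2.62), Ifi44 (-2.54 ± 0.11), Rtp4 (-2.32), the antiviral enzyme Rsad2 (-2.08 ± 0.20), the sensor Ifih1 (-1.61), Ifit1 (-1.50 ± 0.20) and the factor Irf7 (-1.20 ± 0.20). Ifi44 and Rsad2 were above background on 3 of the 4 DOM arrays. With normexp the difference was -1.18 for Ifi44, -0.89 for Rsad2, -0.96 for Ifih1 and -0.61 for Irf7, all called. The 6 members that were not called were Stat2 (-0.25), Irf9 (-0.37), Irf1 (-0.36), Ifi35 (-0.30), Bst2 (-0.53) and Ifi27 (-0.00), although Bst2 passed without DINCH replicate 2 (-0.60). Mx1 and Oas2 were not tested.

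The promoters of these genes were examined in the same way for the core of the interferon-stimulated response element, GAAANNGAA on either strand, also chosen after the results were known. It was found in 9 of the 20 tested members with an entry (45%), against 7.32% of the 9514 genes. Members with a match included Stat2 and Bst2, which were not called. The 4 stretches below are from chr19:34640740-34640828 (plus strand) for Ifit1, chr19:34583334-34583422 (plus strand) for Ifit3, chr4:156200848-156200936 (minus strand) for Isg15 and chr3:142620565-142620653 (plus strand) for Gbp2. Capitals mark the core or its reverse complement, and overlapping matches run together.
Ifit1: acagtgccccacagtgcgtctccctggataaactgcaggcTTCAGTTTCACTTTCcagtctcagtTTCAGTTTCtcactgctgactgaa
Ifit3: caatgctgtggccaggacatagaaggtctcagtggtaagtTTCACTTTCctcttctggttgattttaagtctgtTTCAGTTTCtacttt
Isg15: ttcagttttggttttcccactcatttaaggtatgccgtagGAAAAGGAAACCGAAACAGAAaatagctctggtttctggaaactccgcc
Gbp2: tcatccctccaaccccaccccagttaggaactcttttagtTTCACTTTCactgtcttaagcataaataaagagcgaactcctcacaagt
Ifit3 differed by -1.44 ± 0.13 and Gbp2, an interferon-induced GTPase, by -1.22 ± 0.22 (-0.56 with normexp, under 1.5-fold), and the DMSO mean lay between the compounds for all 4 genes.

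**Figure D2:**
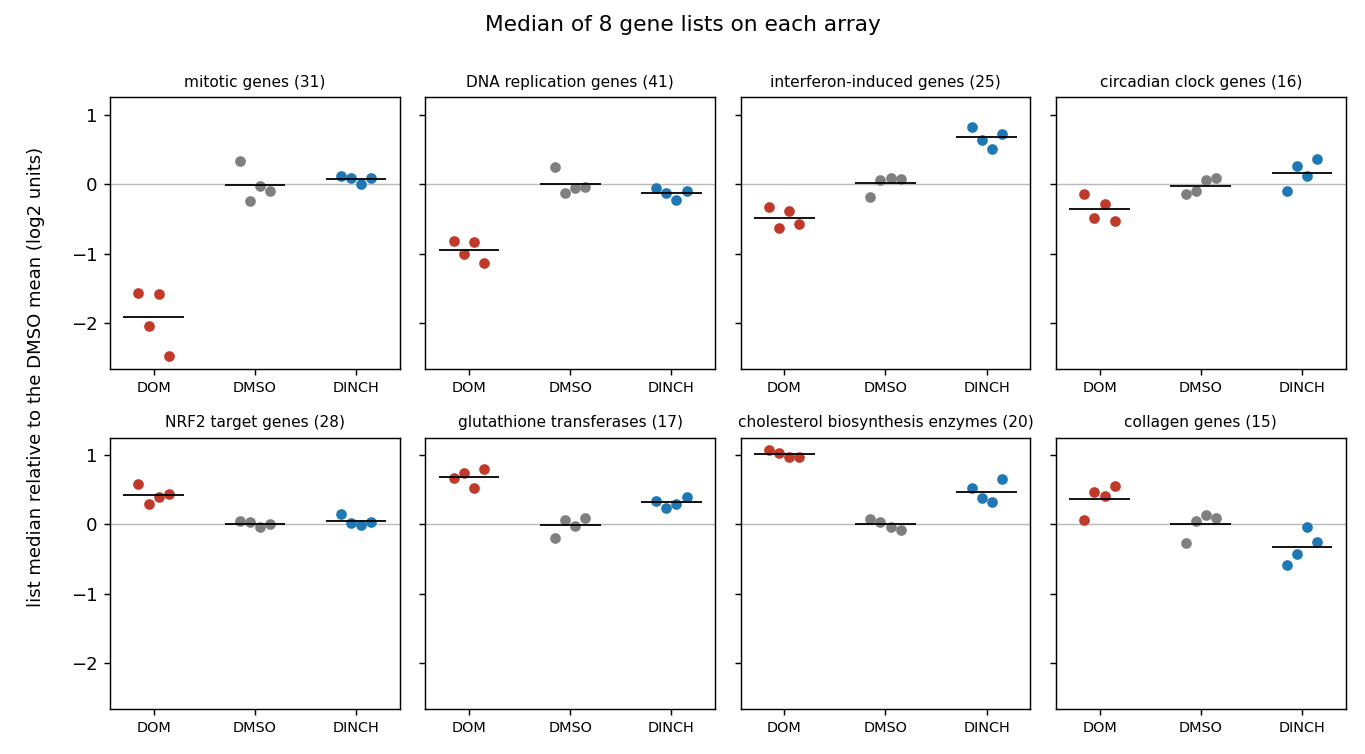
Median of 8 gene lists on each array, in log2 units relative to the mean of the DMSO arrays, for DOM (red), DMSO (grey) and DINCH (blue). Points are single arrays, bars are their means, and the number of tested members stands in brackets. The mitotic list lies from -2.48 to -1.57 with DOM and from 0.01 to 0.12 with DINCH, and the interferon-induced list lies on opposite sides of 0 for the compounds.

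Secreted inflammatory genes divided between the compounds. Of 20 tested, 8 were called higher with DINCH (40%, against 11.5% of all tested genes) and 4 with DOM (20%, against 11.7%). Cxcl10, a chemokine that interferon induces, stood at -0.43, -0.93, -0.44 and -1.15 with DOM and at 2.52, 2.35, 2.32 and 2.29 with DINCH. The groups lay far apart, with a difference of -3.11 ± 0.17 (adjusted p = 1.58e-05), or 8.61-fold. The chemokines Ccl5 (-1.59 ± 0.16), Ccl2 (-1.37 ± 0.18) and Ccl7 (-1.34), the adhesion molecule Vcam1 (-1.65) and the alarmin Il33 (-1.32, or -0.79 with normexp) were higher with DINCH too. Saa3, an acute phase protein, was well above background on none of the DOM arrays. Against the lowest signal called well above background, it was at least 7.66-fold higher with DINCH (limma adjusted p = 1.35e-05), and its DMSO mean lay above both. With normexp its fitted difference was -1.11. Cxcl12, the CXCR4 ligand that stromal cells secrete, went the other way, with 3.40, 4.76, 4.74 and 4.12 on the DOM arrays and 1.13, 1.81, 2.20 and 1.90 on the DINCH arrays (difference 2.50 ± 0.32, adjusted p = 0.000424). Ptgs2, cyclooxygenase-2, differed by 1.73 ± 0.19. Of 12 tested genes of MHC class I presentation, 2 were called (16.7%, under the 23.3% of all tested genes). Both were immunoproteasome subunits higher with DINCH, and Psmb8 differed by -1.08 ± 0.10.

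On the side of DOM stood the enzymes that handle oxidants and electrophiles. The factor NRF2 is held in the cytoplasm by KEAP1, whose cysteines react with electrophiles, and released NRF2 drives genes for glutathione synthesis, NADPH supply and heme breakdown through antioxidant response elements. Of 28 tested NRF2 target genes, 12 were called higher with DOM (42.9%, against 11.7% of all genes) and none with DINCH, with a median difference of 0.45. Hmox1, the heme oxygenase, stood at 7.84, 7.63, 7.23 and 7.78 with DOM and at 4.85, 4.16, 4.20 and 4.41 with DINCH. This is 9.27-fold (difference 3.21 ± 0.19, adjusted p = 1.9e-05), and the DINCH arrays lay around the DMSO mean of 4.38. Pgd, which makes NADPH in the pentose phosphate pathway, differed by 1.47 ± 0.10, the sulfiredoxin Srxn1 by 1.20 ± 0.12, the thioredoxin reductase Txnrd1 by 0.83 ± 0.10 and the quinone reductase Nqo1 by 1.02 ± 0.16. For Nqo1 both compounds lay above DMSO.

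Glutathione supply was split within itself. Gclm, the modifier subunit of the enzyme that starts glutathione synthesis, stood at 1.74, 1.28, 1.55 and 1.13 with DOM and at 0.70, 0.15, 0.23 and -0.00 with DINCH, without overlap (difference 1.16 ± 0.18, adjusted p = 0.00125). Gclc, the catalytic subunit, had a difference of 0.25 and was not called. Slc7a11, the cystine importer, stood at -0.01, -0.73, -0.34 and -0.81 with DOM and at -2.81, -1.48, -1.32 and -1.94 with DINCH (difference 1.41 ± 0.31, adjusted p = 0.00734, or 0.83 with normexp). Its DMSO mean was -0.28, so the DOM arrays lay near the vehicle and the DINCH arrays below it. Ferritin (Fth1 0.05, Ftl1 -0.15), thioredoxin (Txn1 -0.17) and the carbonyl reductases (Cbr1 -0.30, Cbr3 -0.18) did not pass the test.

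Glutathione transferases join glutathione to electrophiles. Of 17 tested, 6 were called higher with DOM (35.3%, against 11.7% of all tested genes) and 1 with DINCH (5.88%, against 11.5%). Their median difference was 0.43. Gsta4, which acts on lipid aldehydes, stood at 1.61, 0.52, 0.29 and 1.21 with DOM and at -1.34, -1.10, -1.12 and -0.73 with DINCH (difference 1.98 ± 0.27, adjusted p = 0.000635). Both compounds were above its DMSO mean of -1.86, and DOM arrays were higher than every DINCH array. The membrane-bound Mgst1 differed by 1.67 ± 0.16 and Gstm1 by 1.34 ± 0.19, with Gstm4 at 0.93, although probes of these Gstm paralogs may share targets. Gstt1 went the other way (-1.13 ± 0.17, adjusted p = 0.000866). Akr1b7, an aldo-keto reductase of steroid-making cells, was also higher with DINCH (-1.67 ± 0.21, or -0.77 with normexp, and above background on 3 of the 4 DOM arrays). Cyp1a1, Cyp1a2 and Cyp1b1, the classical targets of the aryl hydrocarbon receptor, were not above background on any array.

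The antioxidant response element core, TGACNNNGC on either strand, was present in the 250 bases before the start of 6 of 24 NRF2 target genes (25%) and of 2 of 16 glutathione transferases (12.5%), where 13.7% of the 9514 genes held it. Among the called NRF2 target genes it was in 3 of 10 (30%). Elements farther from the start were not searched. Examples with the core in capitals are given for Gclm (chr3:122245383-122245471, plus strand), Txnrd1 (chr10:82859074-82859162, plus strand) and Mgst1 (chr6:138140431-138140519, plus strand).
Gclm: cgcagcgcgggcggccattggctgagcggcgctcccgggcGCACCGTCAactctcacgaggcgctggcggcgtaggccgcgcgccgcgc
Txnrd1: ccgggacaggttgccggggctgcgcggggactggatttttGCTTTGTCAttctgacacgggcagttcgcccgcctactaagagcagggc
Mgst1: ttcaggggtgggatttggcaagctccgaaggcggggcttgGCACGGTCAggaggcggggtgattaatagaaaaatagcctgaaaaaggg
All 3 genes were higher with DOM on every array.

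Cholesterol is made from acetyl-CoA through the mevalonate pathway, squalene and a series of sterol intermediates, and the enzymes are raised together by the factor SREBF2 when sterols are low. Of 20 enzymes tested, 9 were called higher with DOM (45%) and none with DINCH, and 19 of 20 had a difference above 0, with a median of 0.53. The list median relative to DMSO was 1.07, 1.03, 0.97 and 0.96 on the DOM arrays and 0.53, 0.38, 0.33 and 0.66 on the DINCH arrays. Both compounds thus lay above the vehicle, and no DINCH array reached a DOM array. The largest differences were found among the sterol enzymes that follow squalene. Hsd17b7, a sterol 3-ketoreductase, stood at 2.88, 3.33, 3.05 and 2.67 with DOM and at 0.99, 1.14, 0.90 and 1.12 with DINCH (difference 1.95 ± 0.15, adjusted p = 4.22e-05). Its DMSO mean, 1.06, was among the DINCH arrays. Tm7sf2, a sterol reductase, differed by 1.65 ± 0.13 and Nsdhl, which takes part in removing the methyl groups, by 1.00.

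Of the mevalonate enzymes, Mvd, the decarboxylase, stood at 5.16, 5.01, 4.64 and 4.82 with DOM and at 4.36, 4.03, 3.85 and 4.16 with DINCH (difference 0.80 ± 0.15, adjusted p = 0.00323). Pmvk, the kinase just before it, stood at 6.36, 5.96, 5.65 and 5.99 with DOM and at 6.35, 5.86, 5.66 and 5.96 with DINCH, above its DMSO mean of 4.92 in both groups. Its difference was 0.03 with a 95% interval of -0.37 to 0.44 (adjusted p = 0.905), and that of Fdps, the farnesyl diphosphate synthase, was 0.12 with an interval of -0.12 to 0.36 (adjusted p = 0.408). These intervals exclude a difference of 1.5-fold, but not smaller ones, and missing the threshold does not show that the compounds act alike on these enzymes. Dhcr7, a late sterol reductase, had a difference of 0.06 and was not called. The sterol regulatory element searched for, TCACNCCAC, stood before the start of 1 of 15 enzymes, Hmgcs1, against 1.28% of the 9514 genes.

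**Figure D3:**
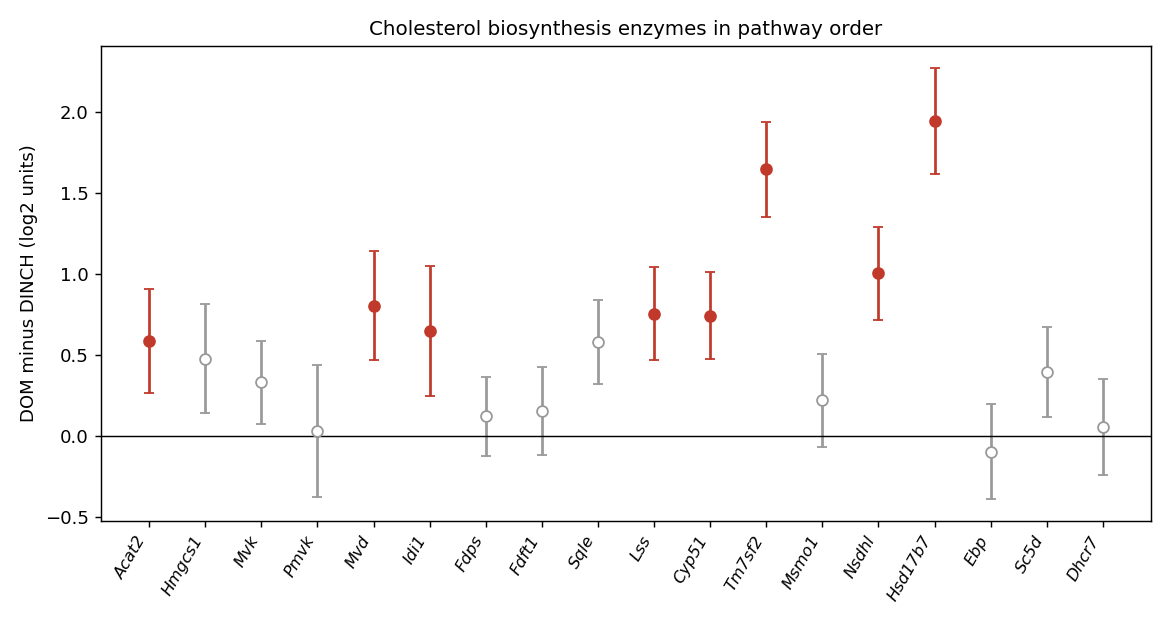
Difference between DOM and DINCH for 18 enzymes of cholesterol synthesis, in log2 units, in the order of the pathway from left to right. Points are limma estimates with 95% intervals over 4 and 4 arrays, filled red where the enzyme was called. Hsd17b7 (1.95) and Tm7sf2 (1.65) differ most, and the intervals of Pmvk, Fdps, Fdft1, Msmo1, Ebp and Dhcr7 contain 0.

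Genes of fatty acid synthesis took the same direction in part. Of 21 tested, 6 were called higher with DOM (28.6%, against 11.7% of all tested genes) and 1 with DINCH (4.76%, against 11.5%). The elongase Elovl6 differed by 1.52 ± 0.13. Fasn, the fatty acid synthase, stood at -0.00, 0.31, 0.13 and -0.17 with DOM and at -1.31, -1.29, -1.32 and -1.41 with DINCH, on both sides of its DMSO mean of -0.99 (difference 1.40 ± 0.12, adjusted p = 6.61e-05). Acaca, the carboxylase that feeds it, differed by 0.66. Acsl1, which activates fatty acids for use, was higher with DINCH (-0.84).

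PPAR receptors are lipid sensors that raise genes of fatty acid uptake and oxidation. Of 24 tested target genes, 7 were called higher with DOM (29.2%, against 11.7% of all tested genes) and 1 with DINCH (4.17%, against 11.5%). Angptl4, a secreted inhibitor of lipoprotein lipase, stood at 6.74, 7.07, 6.91 and 6.80 with DOM and at 0.00, 1.70, 1.85 and 1.03 with DINCH, around a DMSO mean of 3.87. The difference was 5.74 ± 0.34 (adjusted p = 2.11e-05), or 53.3-fold. Pdk4, the kinase that turns off pyruvate dehydrogenase, stood at 2.26, 1.76, 1.43 and 2.60 with DOM and at 0.34, -0.62, -0.71 and 0.02 with DINCH, both above its DMSO mean of -1.44 (difference 2.26 ± 0.30, adjusted p = 0.000475). Cpt1a, which carries fatty acids into mitochondria, stood at 4.03, 4.68, 4.55 and 4.55 with DOM and at 2.20, 2.18, 2.36 and 2.55 with DINCH (difference 2.13 ± 0.16, adjusted p = 4.21e-05). All 3 had DOM and DINCH arrays fully apart, in 3 different positions relative to the vehicle.

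The mitochondrial carriers Ucp2 (0.99 ± 0.13) and Slc25a20 (0.82) were called higher with DOM as well, whereas the oxidation enzymes Acadm (0.21), Acadvl (0.17), Hadha (0.06) and Hadhb (0.04) and the lipid droplet protein Plin2 (0.45) were not called. Fgf21, a hormone that PPAR alpha and ATF4 raise, was 5.65-fold higher with DINCH, at -0.68, -0.72, -0.57 and -0.64 against -3.06, -3.30, -2.69 and -3.56 with DOM (difference -2.50 ± 0.17, adjusted p = 3.12e-05, or -1.44 with normexp). Its DMSO mean, -0.35, lay above both compounds and much nearer to DINCH. The receptors themselves were not called. Their differences were -0.15 for Ppara (95% interval -0.53 to 0.22), 0.12 for Ppard (-0.10 to 0.34) and -0.24 for Pparg (-0.58 to 0.10). Ppargc1a, a coactivator of these receptors, was higher with DINCH (-1.01 ± 0.19, adjusted p = 0.00327, or -0.62 with normexp).

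The extracellular matrix separated the compounds in the direction of DOM. Collagens form fibrils and basement membrane networks, and Sertoli cells share the building of the tubular basement membrane. Of 15 tested collagen genes, 8 were called higher with DOM (53.3%) and none with DINCH, with a median difference of 0.59. The list median relative to DMSO was 0.06, 0.46, 0.41 and 0.56 on the DOM arrays and -0.58, -0.42, -0.04 and -0.25 on the DINCH arrays. These lay on opposite sides of the DMSO mean. The DMSO arrays themselves stood at -0.26, 0.06, 0.13 and 0.09, so DOM replicate 1 and DINCH replicates 3 and 4 lay within their range. Col3a1, a fibrillar collagen, stood at 5.15, 6.58, 6.72 and 6.27 with DOM and at 3.66, 4.18, 4.59 and 4.43 with DINCH (difference 1.96 ± 0.33, adjusted p = 0.00185). The basement membrane chains Col4a1 and Col4a2 differed by 1.02 and 0.93 and the microfibrillar Col6a1 and Col6a2 by 1.12 and 1.21. DOM replicate 1 was the lowest DOM array for Col3a1, Col6a1 and Col6a2. On the 2 DOM and 2 DINCH arrays with all extraction measures in range, 1 collagen gene was called, none of these 5 was, and the differences of Col6a1 and Col6a2 were 0.61 and 0.65. The chains of type I collagen were not called (0.43 for Col1a1, adjusted p = 0.0648, and 0.22 for Col1a2), though Col1a1 passed with quantile normalization (0.68).

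Of 17 tested matrix proteins and proteoglycans, 8 were called higher with DOM (47.1%, against 11.7% of all genes) and 1 with DINCH (5.88%, against 11.5%). Mgp, matrix Gla protein, an inhibitor of calcification, showed the largest difference of all called genes. It stood at 3.13, 3.67, 3.51 and 4.30 with DOM and at -3.75, -2.90, -2.59 and -2.75 with DINCH, with a DMSO mean of 0.16. This is a difference of 6.65 ± 0.29 (adjusted p = 3.3e-06), or 100.3-fold. Thbs2, a thrombospondin, stood at 6.82, 7.73, 7.53 and 7.59 with DOM and at 3.70, 3.75, 4.42 and 4.13 with DINCH (difference 3.41 ± 0.23, adjusted p = 2.82e-05). Thbs1 differed by 2.35 ± 0.27, the small proteoglycan Aspn by 3.27 ± 0.38 and fibronectin, Fn1, by 0.93 ± 0.15. Spp1, osteopontin, was the 1 member higher with DINCH (-1.10 ± 0.25), and Dcn (0.01), Bgn (0.10), Sparc (-0.04) and Vcan (-0.11) were not called. Aspn was above background on 1 of the 4 DINCH arrays, and with normexp its difference was 1.06.

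The TGF-beta family signals through SMAD factors and includes the gonadal activins and inhibins. Of 25 tested genes, 9 were called higher with DOM (36%, against 11.7% of all tested genes) and 2 with DINCH (8%, against 11.5%). Inhbb, the subunit of activin B and inhibin B and a product of Sertoli cells, stood at 5.28, 5.91, 6.02 and 5.69 with DOM and at 2.57, 3.24, 3.70 and 3.41 with DINCH, around a DMSO mean of 4.11 (difference 2.49 ± 0.24, adjusted p = 0.000118). Fst, follistatin, which binds and blocks activins, ran opposite, with -0.51, -1.72, -1.64 and -2.07 on the DOM arrays and 1.41, 0.88, 0.53 and 0.26 on the DINCH arrays (difference -2.25 ± 0.34, adjusted p = 0.00098). Neither gene had overlapping groups. The other subunits, Inha (0.41) and Inhba (0.06), were not called. Among ligands, Tgfb1 (1.09 ± 0.16) was higher with DOM and Tgfb2 (-0.89 ± 0.13) with DINCH. The inhibitors of differentiation Id3 (2.04 ± 0.31) and Id1 (1.71), the coreceptor Tgfbr3 (0.66) and the signal carrier Smad3 (0.94) were higher with DOM.

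Growth factor, junction and contractile genes were counted beside the matrix. Igf1, insulin-like growth factor, differed by 1.97 ± 0.35 and Irs1, the adaptor of its receptor, by 1.98 ± 0.16, while the receptor Igf1r (0.14) was not called. Of 14 tested junction genes, 3 were called higher with DOM (21.4%) and 2 with DINCH (14.3%, or only 1 without DOM replicate 2 or 3 or without DINCH replicate 1 or 4). The shares over all tested genes were 11.7% and 11.5%. Gja1, the connexin of the Sertoli cell barrier, differed by 1.05 ± 0.24 (adjusted p = 0.00883), or by 0.70 and not called on the arrays in range (adjusted p = 0.0855). Of 22 tested contractile and YAP or SRF output genes, 7 were called higher with DINCH (31.8%) and 1 with DOM (4.55%). Ccn2, the connective tissue growth factor, stood at 5.07, 3.75, 3.84 and 3.66 with DOM and at 5.88, 5.73, 5.47 and 6.14 with DINCH (difference -1.73 ± 0.29, adjusted p = 0.00192). Cnn1, a calponin, differed by -1.55 ± 0.15 and Ankrd1 by -1.36 ± 0.18. Myl9, a myosin light chain, was the 1 member higher with DOM on its brightest probe (1.30 ± 0.12), and Ccn1 (0.01) and Tagln (-0.23) were not called.

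**Figure D4:**
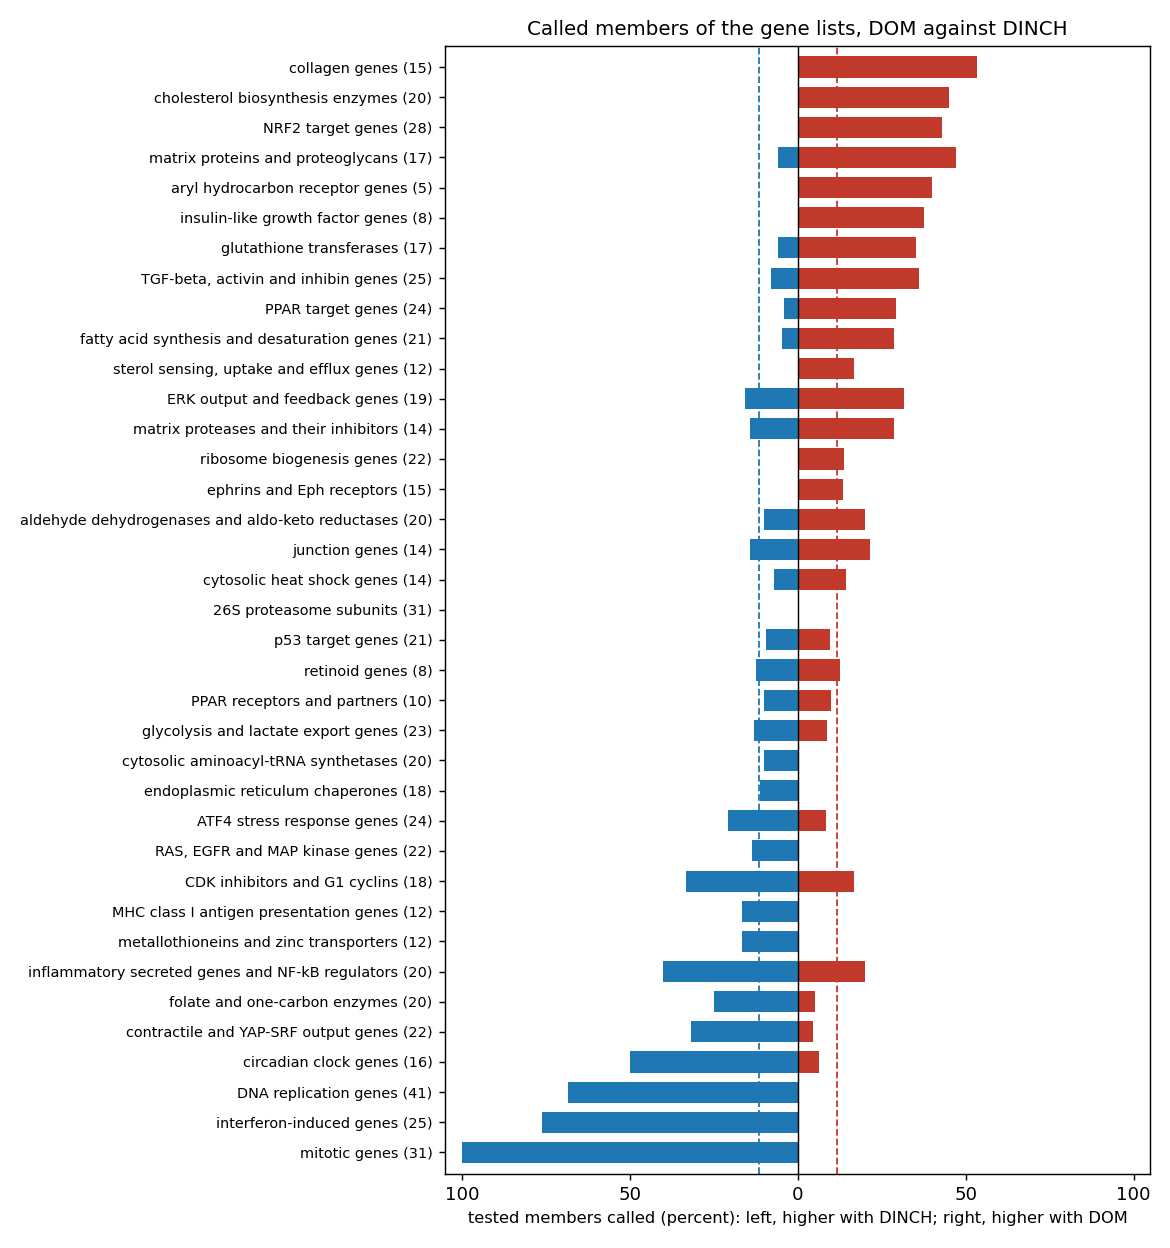
Share of the tested members of the gene lists called higher with DINCH (blue, to the left) and higher with DOM (red, to the right), in percent, with the number of tested members in brackets. Dashed lines mark the shares over all tested genes, 11.5% and 11.7%. The mitotic list is at 100% on the DINCH side, the collagen list at 53.3% on the DOM side, and the 26S proteasome has no called member.

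The ERK cascade carries growth factor signals from RAS through MAP kinases to early genes, which include its own brakes. Of 19 tested output and feedback genes, 6 were called higher with DOM (31.6%, against 11.7% of all genes) and 3 with DINCH (15.8%, against 11.5%). Egr1, an early factor, stood at 4.95, 4.63, 4.50 and 4.29 with DOM and at 1.68, 2.92, 2.93 and 3.14 with DINCH, and the DMSO mean of 4.44 lay among the DOM arrays (difference 1.92 ± 0.29, adjusted p = 0.00108). Spry1, a feedback inhibitor, stood at 1.47, 1.70, 0.96 and 1.64 with DOM and at -2.38, -0.41, -0.13 and -0.21 with DINCH (difference 2.23 ± 0.45, adjusted p = 0.00456). Fosl1, a subunit of the AP-1 factor, differed by 2.22 ± 0.35 (1.36 with normexp) and the ERK phosphatase Dusp6 by 0.86. Another phosphatase, Dusp4, was higher with DINCH (-1.35 ± 0.37, adjusted p = 0.0189), with its arrays overlapping, and it missed the threshold without DOM replicate 2 (adjusted p = 0.052) or 4 (adjusted p = 0.0522) and on the arrays in range (-0.74). DINCH replicate 1 was the lowest array for Egr1, Spry1 and Fosl1. The list median relative to DMSO was -1.08 on it and -0.43 to -0.35 on the other DINCH arrays. Without it, the counts were again 6 and 3, and the median difference fell from 0.28 to 0.14. Within the slides the median was 0.82, -0.06 and -0.07, so the direction of the list median turned on 2 of the 3 slides, and on the arrays in range 3 members were called higher with DOM and none with DINCH.

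The kinases and RAS proteins upstream were mostly not called. Of 22 tested, 3 were called higher with DINCH (13.6%, near the 11.5% of all tested genes) and none with DOM. Mras, a RAS-related GTPase, stood at 1.76, 1.40, 1.37 and 1.56 with DOM and at 2.86, 2.21, 2.21 and 2.53 with DINCH (difference -0.93 ± 0.16, adjusted p = 0.00238), and Rras2 differed by -1.0 ± 0.16. Egfr, the epidermal growth factor receptor, differed by -0.67 ± 0.12 (adjusted p = 0.00257), and with normexp background correction its difference, -0.57, was under 1.5-fold. These values are of its brightest probe, and another of its 3 tested probes was called higher with DINCH at more than 2-fold. For Mras and Egfr the DMSO mean lay between the compounds. Mapk12, the p38 gamma kinase, differed by -0.44 ± 0.13 (adjusted p = 0.0266), which is 1.36-fold and below the threshold, with DINCH arrays all above DOM arrays. Mapk3, an ERK kinase (-0.01), was not called.

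Ephrins and their Eph receptors carry signals between neighbouring cells. Of 15 tested ephrins and Eph receptors, 2 were called higher with DOM (13.3%, against 11.7% of all tested genes, or 1 with normexp), and Efnb2, a ligand, differed by 1.56. Ngef, a guanine nucleotide exchange factor downstream of ephrin receptors, stood at -1.84, -2.86, -2.43 and -2.15 with DOM and at -0.11, 0.08, -0.43 and -0.05 with DINCH (difference -2.19 ± 0.21, adjusted p = 0.000102, or -1.41 with normexp).

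Clock genes differed as well. In the circadian clock, the factors CLOCK and ARNTL drive their own repressors and output genes over the day. Of 16 tested, 8 were called higher with DINCH (50%) and 1 with DOM, with a median difference of -0.57. Relative to DMSO the list median was -0.14 on DOM replicate 1 and -0.10 on DINCH replicate 1, nearly the same. The other DOM arrays had -0.48, -0.28 and -0.54 and the other DINCH arrays 0.26, 0.12 and 0.36. Within the slides the median difference was -0.27, -0.57 and -0.65. Dbp, an output factor, stood at 1.91, 1.35, 0.92 and 1.71 with DOM and at 3.78, 3.40, 3.36 and 3.96 with DINCH, apart by 4.45-fold (difference -2.15 ± 0.22, adjusted p = 0.000154). Nr1d1, a repressor of the loop, differed by -1.12 ± 0.18. Arntl (0.39) and Clock (-0.39), the activators, were not called. With normexp background correction 5 members were called higher with DINCH and none with DOM, and without a filter on dim probes 4 were called higher with DINCH.

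Metal and amino acid responses were counted next. Metallothioneins bind zinc and copper. Mt2 stood at 3.43, 3.18, 2.85 and 3.29 with DOM and at 6.60, 4.63, 3.76 and 5.37 with DINCH (difference -1.90 ± 0.49, adjusted p = 0.0148, or -1.26 and not called on the arrays in range, adjusted p = 0.203), and Mt1 differed by -1.42 ± 0.32. The DOM arrays of both lay near DMSO, and probes of these paralogs may share targets. The other 10 tested metallothionein and zinc transporter genes were not called. Of 24 tested ATF4 stress genes, 5 were called higher with DINCH (20.8%, against 11.5% of all tested genes) and 2 with DOM (1 to 5 when single arrays were left out). Slc7a11, counted above with the NRF2 target genes, was among those higher with DOM. Cth, which makes cysteine, stood at 2.02, 2.08, 2.04 and 2.00 with DOM and at 3.39, 3.40, 3.82 and 3.10 with DINCH, both under its DMSO mean of 4.26 (difference -1.39 ± 0.15, adjusted p = 0.000164). The serine synthesis enzymes Psat1 (-0.96 ± 0.16) and Phgdh (-0.79) and the mitochondrial Shmt2 (-1.0 ± 0.12) had the same order, and of 20 tested folate enzymes 5 were called higher with DINCH (25%, or 2 with normexp and none on the arrays in range) and 1 with DOM. Of 23 tested glycolytic genes, 3 were called higher with DINCH (13.0%, near the 11.5% of all tested genes) and 2 with DOM. Hk2, a hexokinase, was among those higher with DINCH (-1.21 ± 0.20).

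Other lists were read against the 23.3% of all tested genes called in either direction, and several lay below it. None of 31 tested 26S proteasome subunits was called, and their differences ran from -0.40 for Psma1 to 0.15 for Psmc4, with a median of -0.18. Of 22 ribosome biogenesis genes 3 were called, all higher with DOM, with a median of -0.01, and the list median relative to DMSO was -0.65 to -0.52 on the DOM arrays and -0.62 to -0.52 on the DINCH arrays. Of 20 cytosolic aminoacyl-tRNA synthetases 2 were called higher with DINCH and none with DOM (median -0.26), of 18 endoplasmic reticulum chaperones 2 higher with DINCH (1 to 4 when single arrays were left out), and of 14 cytosolic heat shock genes 2 higher with DOM (1 with normexp) and 1 with DINCH. Of 12 genes of sterol sensing, uptake and efflux, 2 were called higher with DOM and none with DINCH (16.7%). Further lists lay above it. Of 14 matrix proteases and inhibitors 4 were called higher with DOM and 2 with DINCH (42.9%), and of 20 aldehyde dehydrogenases and aldo-keto reductases likewise 4 and 2 (30%). Of 8 insulin-like growth factor genes 3 (37.5%) and of 5 aryl hydrocarbon receptor genes 2 (40%) were called higher with DOM and none with DINCH. Among these 2, only Nqo1, named above with the NRF2 target genes, was called on its brightest probe. The retinoid list lay near the share of all tested genes, with 1 of 8 called in each direction (25%). Counts of the protease, reductase, sterol and retinoid lists moved by 1 or 2 members when single arrays were left out. Hspa5, the main chaperone of the endoplasmic reticulum, differed by -0.85 ± 0.16, and with quantile normalization its difference, -0.57, was under 1.5-fold. Hprt, a reference gene, had a difference of -0.35 (95% interval -0.64 to -0.05, adjusted p = 0.0673).

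Beyond these lists, the called genes with the largest differences included regulators and secreted proteins of other kinds. Slc40a1, ferroportin, the iron exporter, stood at 1.74, 2.14, 2.12 and 2.51 with DOM and at -2.25, -1.71, -1.68 and -0.98 with DINCH (difference 3.78 ± 0.25, adjusted p = 2.83e-05). Sema7a, a membrane semaphorin, differed by 3.42 ± 0.33, and Myb, a factor of proliferating progenitors, by 3.61 ± 0.53 with DINCH replicate 1 the lowest array at -3.50 and the other DINCH arrays from -1.47 to -0.61. On the side of DINCH, Slamf9, a receptor of the SLAM family, stood at -2.67, -3.41, -2.02 and -3.57 with DOM and at 1.52, 1.32, 1.13 and 1.33 with DINCH (difference -4.24 ± 0.30, adjusted p = 3.43e-05), or 18.9-fold. Phf11d (-3.25) and Map2, a microtubule-associated protein (-3.01), were each above background on 1 of the 4 DOM arrays, and normexp gave -1.23 and -1.03. Phf11d has a close paralog, Phf11a, so their probes may share a target.

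Of the 8 tested Sertoli cell markers, 4 were called (50%, against 23.3% of all tested genes), 2 in each direction. Inhbb was higher with DOM, and the factor Gata4 by 0.65 ± 0.21 (adjusted p = 0.038, or 0.41 and not called with normexp, adjusted p = 0.0788). Dhh, the hedgehog ligand of Sertoli cells, stood at 1.11, 0.51, 0.53 and 0.70 with DOM and at 2.56, 1.94, 2.12 and 2.17 with DINCH (difference -1.48 ± 0.17, adjusted p = 0.000268), with a DMSO mean of 1.10. Kitl, the ligand that feeds spermatogonia, differed by -1.18 ± 0.36 (adjusted p = 0.0301, or -0.65 with normexp and -0.48 on the arrays in range), and the arrays of Gata4 and Kitl overlapped. Leaving out any of DOM replicates 2, 3 and 4 or DINCH replicates 1, 2 and 4 left neither called, with adjusted p values of 0.0517 to 0.105 for Gata4 and 0.054 to 0.0845 for Kitl. Inha (0.41), Nr5a1 (-0.25) and Vim (-0.21) were not called. Of the markers of other cell types, Cnn1 and the Leydig enzyme Cyp17a1 (-0.65) were called higher with DINCH, the latter not without DOM replicate 1 (-0.55) or DINCH replicate 1 (-0.62) or 2 (-0.52). The part of other cell types in the results was not tested.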

How the data were processed

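Total RNA of TM4 cells was hybridized to 1-colour mouse Agilent arrays, and each of the 23 samples had 1 array. Per the file headers, the deposited intensity values are processed signals of Feature Extraction 11.5.1.1, subtracted for background and detrended over the array. Their own normalized values, deposited by the authors as log2 values scaled to the 75th percentile and centred per probe, served as an alternative. Each column of them correlated with its own array at 0.9996 at the lowest once the arrays were centred likewise. Here log2 of the processed signal (floor 1) minus the 75th percentile of the 59305 non-control spots of the array was used, without control and outlier spots, and repeated spots were averaged per probe. The test took the 23857 probes that, on all 4 arrays of DOM or all 4 of DINCH, were well above background and not below the 20th percentile. Symbols came from RefSeq accessions for 26582 of 55681 probes (20145 genes), and 29099 stayed unnamed. limma 3.58.1 (R 4.3.3) compared the 4 DOM with the 4 DINCH arrays, with Benjamini-Hochberg adjustment over all tested probes and the thresholds of the study's methods. Intervals are 95%. The code was tested on simulated data with known changes. The number of arrays limits the precision. Between 43.4% and 52.2% of spots were well above background, and none was saturated. The p-values measure the spread between the arrays of a group. Promoters of 9514 tested genes were searched 250 bases upstream. Figures were drawn with Python 3.11.15 and matplotlib 3.10.9.

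The members and gene lists were chosen with earlier results of these data known. Some genes stand in more than 1 list, so the lists are not independent. Genes named were the 15 called genes with the largest differences in each direction whose arrays did not overlap, up to 4 leading called members of each list, the genes the study followed by qPCR, Hprt, the PPAR receptors and the cell type markers. From these a selection is printed, and further list members are named for their role, after their values were seen. Alternatives covered normalization, background correction, the filter on dim probes, blocks for slide and replicate number, the groups in the fit, outlier spots, the variance trend, the brightest probe, the authors' values and leaving out each array. An alternative with only those arrays whose extraction measures were all in range was chosen after seeing the data. Some items are not reported here.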

Additional observations from a re-analysis of the deposited data

Results flagged for a closer look

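In 22 of 356 pairs of a gene and a group of 4 arrays, the outermost array lay far from the others by Dixon's criterion. Chance flags about 1 in 20 groups, which is close to this share. The flags were not spread evenly over the arrays, however, and most fell on DINCH replicate 1 and DOM replicate 1. Each value below is a level in log2 units relative to the 75th percentile of the array.

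DINCH replicate 1 was the lowest DINCH array for Egr1 (1.68, with the others from 2.92 to 3.14), Spry1 (-2.38, others -0.41 to -0.13), Gja1 (-0.078, others 0.88 to 1.07) and Fen1 (3.01, others 3.85 to 3.93). It was the highest for Cenpa (5.09, others 4.75 to 4.78), Irf7 (-1.39, others -1.98 to -1.89), Ppargc1a (-1.25, others -1.87 to -1.80) and Ifi27 (5.54, others 5.17 to 5.21). Of the other DINCH arrays, replicate 2 was lowest for Phf11d (-1.49), replicate 3 was lowest for Elovl6 (2.09) and Ifi44 (-1.53), and replicate 4 was lowest for Igf1r (2.28) and highest for Acadm (4.36), Pcna (5.95) and Slc25a20 (0.16).

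DOM replicate 1 was the lowest DOM array for the collagens Col6a1 (5.88, others 6.51 to 6.51), Col6a2 (2.19, others 3.04 to 3.09) and Col1a1 (6.97, others 7.34 to 7.42) and for Bgn (2.86) and Ppara (-0.56). It was the highest for Ccn2 (5.07, others 3.66 to 3.84). DOM replicate 2 was the lowest for Hk2 (-0.64). The cause of these values was not tested.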

How the results depend on the processing

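Between DOM and DINCH 2774 genes were called. With normexp background correction 1845 were called, 1768 of them among the 2774 (562 above 2-fold in place of 1120, and 909 higher with DINCH in place of 1371). An alternative chosen after seeing the data kept only the arrays whose extraction measures were all in range. These were 2 DOM and 2 DINCH arrays that share no slide, and 786 genes were called, 758 of them among the 2774. Of the 786, 671 were above 2-fold, and 390 were higher with DOM and 396 higher with DINCH. With any single array left out, the count ran from 2493 to 2908, and the remaining settings gave 2124 to 2983. The share of calls higher with DOM ran from 47.9% to 56.7%. BDB against DMSO gave 0 called genes, but 120 with all groups in 1 fit, 100 with the slide as a block, 82 with a variance trend and 42 with normexp, and the cause was not tested. Deviations of same-numbered DOM and DINCH arrays correlated at 0.20, -0.03, 0.10 and 0.32, so the numbers were not taken to pair the arrays, and with a replicate block 2800 genes were called (1125 above 2-fold). None of the 124 named genes called on their brightest probe turned its direction under a setting tried. Of these, 55 lost the call with only the arrays in range, 10 with no filter on dim probes (Ccnd1, Dusp6, Gja1, Mt2 and Spp1 among them), 4 with normexp, 4 with a weaker filter, 2 with quantile normalization (Hspa5 and Kitl) and 1 with the slide as a block (Gata4). With the arrays in range, the median difference was -1.90 for the mitotic list and -1.14 for the interferon-induced list, and 30 and 13 of their members were called in place of 31 and 19. Members called higher with DOM fell from 8 to 1 for collagens, 8 to 3 for matrix proteins, 9 to 4 for cholesterol enzymes, 12 to 6 for NRF2 targets, 7 to 4 for PPAR targets and 9 to 2 for the TGF-beta list, and members higher with DINCH from 28 to 11 for DNA replication and 8 to 4 for the clock. Of all called genes, 1 was called in the opposite direction with normexp, without a filter, with the arrays in range and without DOM replicate 1. The size of a difference at dim probes is limited by their signal over background.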
